A study of Mus musculus with 8 samples.

Results

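The genes described here are 38 genes of the lysosome, taken by their gene symbols. They are 13 cathepsins and other proteases, 6 glycosidases, 4 genes of sphingolipid and cholesterol handling, 7 genes of membrane proteins and channels, 2 regulators and 6 genes of the proton pump and its accessory protein. All 38 were among the 16136 genes listed for both diets. They were followed in adhesion-related macrophages (ARMs), which stay attached to adipocytes through collagenase digestion of epididymal white adipose tissue (eWAT), and in macrophages of the stromal vascular fraction (SMs, labelled NARM) of the same tissue. The mice were wild-type (C57BL/6J) males, without any transgene or drug in any group, and received from 6 weeks of age either a normal chow diet (ND) or a high-fat diet (HFD), the latter for 8 weeks. Each of the 4 groups (ND SM, ND ARM, HFD SM, HFD ARM) had 2 RNA-seq libraries of FACS-sorted cells, each pooled from 10 ND mice or 6 HFD mice, so that the spread between replicates is that between pools.

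The lysosome is the compartment in which macrophages degrade what they engulf. A vacuolar proton pump with a membrane sector (V0) and an ATP-splitting sector (V1) acidifies it, soluble proteases, glycosidases and lipid hydrolases work at that acid pH, and heavily glycosylated membrane proteins line its inner face. In obese adipose tissue, macrophages take up lipid from adipocytes, and lysosomal lipid breakdown is a known part of that work.

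The libraries held 14508824 to 19040133 estimated read counts, of which the 38 genes took 3.17% to 3.37%. All 10 macrophage markers were above 0 in every library. The summed TPM of the macrophage markers was 29620 and 31190 in HFD ARMs against 31900 and 32780 in HFD SMs, and 33640 to 34890 in the ND libraries, with overlap. Markers of adipocytes, fibroblasts, lipid-associated macrophages, vascular endothelium, and pericytes and smooth muscle were higher in ARMs than in SMs of each diet, and mesothelial markers in ND mice. The summed TPM (a share of all transcripts, corrected for their length) of 9 adipocyte markers was 179 to 305 in the 4 ARM libraries and 56.6 to 109 in the 4 SM libraries, that of 8 fibroblast and progenitor markers 363 to 683 against 161 to 267, and that of 7 markers of lipid-associated macrophages 1427 to 2278 against 1098 to 1404. In HFD mice the 6 vascular endothelial markers summed to 75.3 and 72.3 TPM in ARMs and 30.8 and 21.4 in SMs, and the 6 pericyte and smooth muscle markers to 51.3 and 45.9 against 31.4 and 19.4. In ND mice these sums were 18.6 and 37.6 against 15.0 and 18.0, and 13.5 and 20.9 against 11.2 and 9.27, and the 6 mesothelial markers were at 35.4 and 47.6 against 10.5 and 14.1. The sum of the 6 lymphatic endothelial markers, Lyve1 among them, was lower in HFD ARMs (1002 and 870 TPM against 1399 and 1339 in SMs) and overlapped in ND mice. In ND SM replicate 1 it was 1496 TPM with only 3 of the 6 markers above 0, so few genes can carry this sum. Single lymphatic markers were not compared. Neutrophil markers were higher in HFD ARMs (96.1 and 94.7 against 80.6 and 80.9) and lower in ND ARMs (76.7 and 132 against 161 and 146). Dendritic and B cell markers were lower in HFD ARMs, and T and NK cell markers in ND ARMs, all at low sums. Fewer cells of a type and less RNA per cell cannot be told apart in such sorted bulk samples.

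First, the level of each gene was compared among the 38, on the TPM scale. Ctsb, a cysteine protease, was the most abundant, with 6058 to 7647 TPM over the 8 libraries and 21.9% of the TPM of all 38 genes. It was followed by Psap (3013 to 3653 TPM), the precursor of the saposins that help lipid hydrolases reach their substrates, and Cd68 (1870 to 2711 TPM), a macrophage glycoprotein of the lysosomal membrane. Lgmn, the asparaginyl endopeptidase (1862 to 2226 TPM), and Grn, the granulin precursor (1914 to 2167 TPM), came next, and the TPM ranges of Cd68, Lgmn and Grn overlapped. With Ctsd, Laptm5, Lamp1, Ctss and Ctsc, these 10 genes held 74.1% of the TPM of the 38, and 9 of them were in the top 10 of every group. At the other end, Ctsk had 14.2 to 23.3 TPM and Ctse 0.9 to 1.43 TPM, the latter from as few as 13 counts in a library, whereas the other 37 genes were over 10 TPM in every library. The summed TPM of the 38 genes was 29859 to 32113 per library, a narrow range across cell types and diets.

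**Figure D1:**
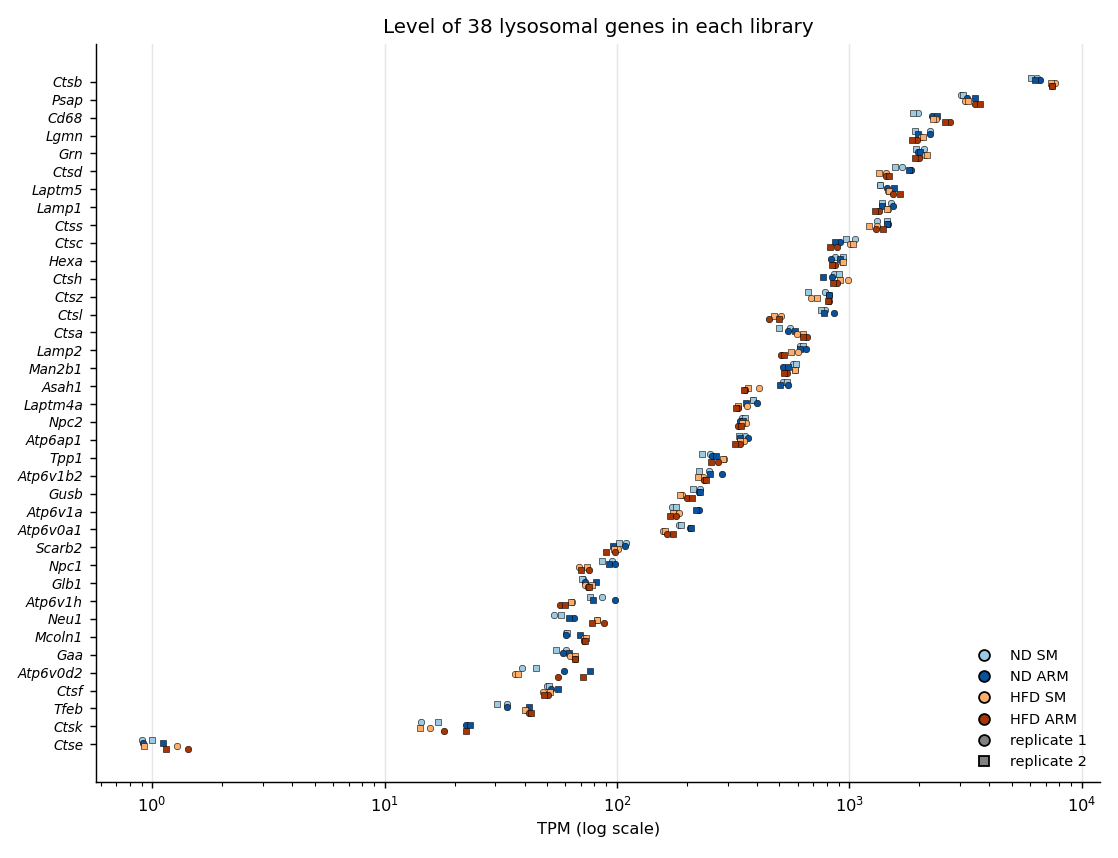
The level of each of the 38 genes in TPM, on a log scale, with 1 point per library (2 libraries in each of 4 groups), ordered from the highest mean to the lowest. Ctsb was at 6058 to 7647 TPM and Ctse at 0.9 to 1.43 TPM, and for most genes the 8 points lie close together against the spread between genes.

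Next, ARMs and SMs of the same diet were compared, to find whether the lysosomal transcripts differ between macrophages held on adipocytes and those of the stroma. Of the 38 genes, Atp6v0d2 alone passed the test (adjusted p under 0.05 over all genes tested, edgeR's quasi-likelihood test, Benjamini-Hochberg), and it was higher in ARMs of both diets. In HFD mice this was 1 of 38 genes higher and 0 lower, where 6.53% of all 13337 genes tested passed as higher and 3.02% as lower. In ND mice it was likewise 1 higher and 0 lower, against 4.28% and 0.458% of 12441 genes. With a fold change over 1.5 required as well, 1 gene was called in HFD mice and 0 in ND mice, against 4.75% and 3.68% of all genes. At an unadjusted p under 0.05, 5 of the 38 genes were higher and 7 lower in HFD ARMs, where 13.4% and 9.75% of all genes were. In ND ARMs 4 were higher and 0 lower, where 10.2% and 4.75% of all genes were. In either direction, that level was reached by 23.2% (HFD) and 14.9% (ND) of all genes, the shares against which the counts of unadjusted p-values in the gene groups are to be read. DESeq2 passed 2 genes as higher and 0 as lower in each diet, and limma on log2(FPKM + 1) passed 2 as higher and 1 as lower in HFD mice and 1 and 0 in ND mice. The shares above are edgeR's, and those of all genes passing by DESeq2 or limma were not counted.

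The changes of most of the other genes were small and closely bounded. The log2 fold changes of the 38 had medians of -0.02 (HFD) and 0.06 (ND), beside -0.01 and -0.02 over all genes tested, with 17 and 25 of the 38 above 0. In HFD mice 36 genes, and in ND mice 35, were within 0.25 of 0 on the log2 scale. The 95% interval of the fold change lay inside 1.5-fold in both directions for 35 genes in each diet, the exceptions being Atp6v0d2, Ctsk and Ctse. The median standard error on the log2 scale was 0.06 for HFD and 0.10 for ND.

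**Figure D2:**
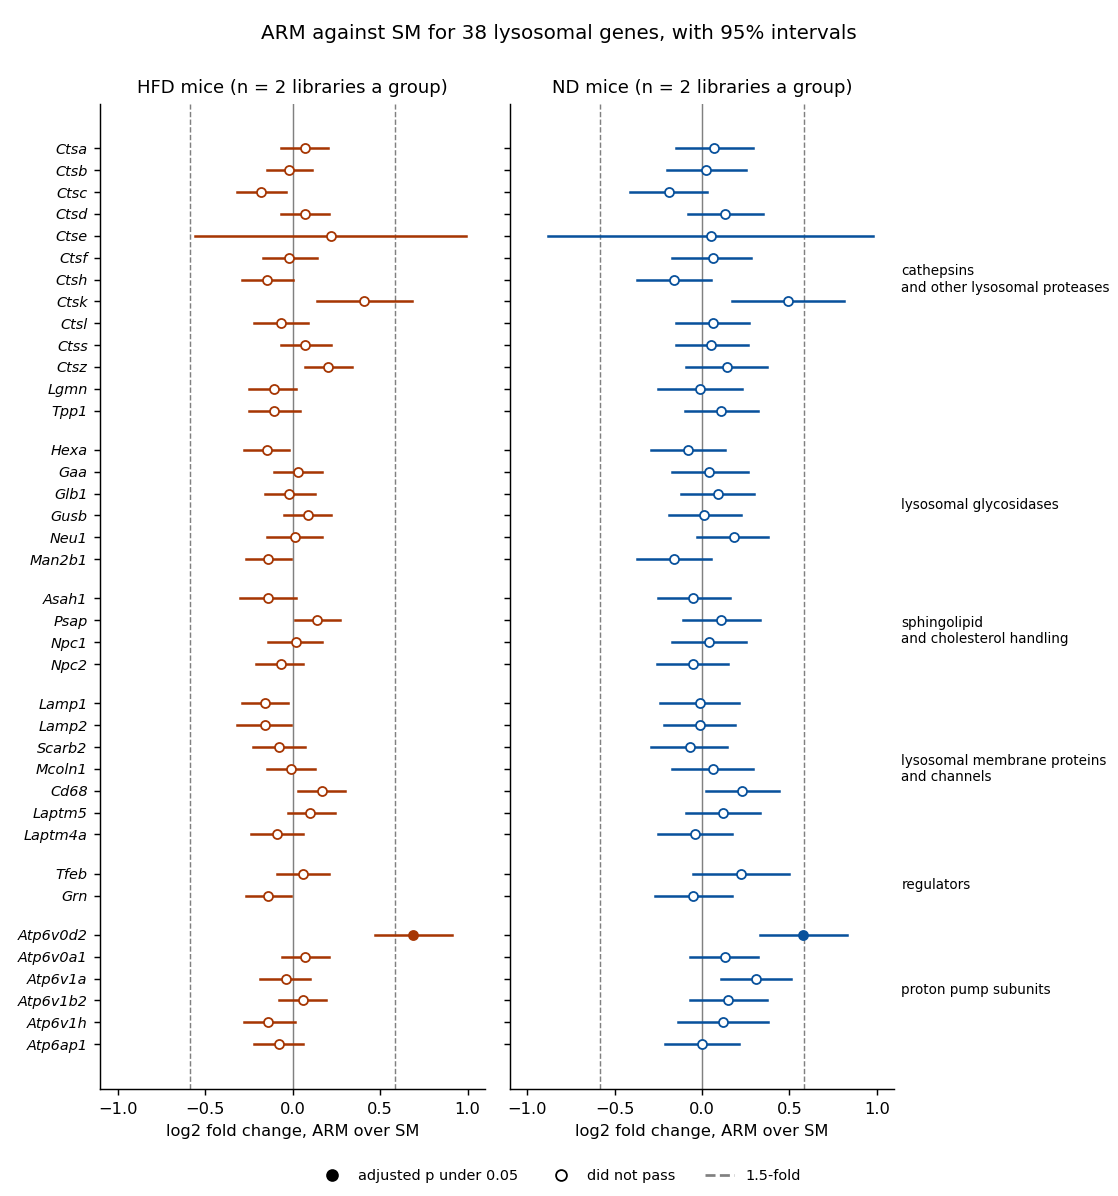
Log2 fold change of ARM over SM for each of the 38 genes, grouped by role, in HFD mice (left) and ND mice (right), with 2 libraries a group. Points are edgeR estimates, bars their 95% intervals, filled points passed at an adjusted p under 0.05, and dashed lines mark 1.5-fold. Atp6v0d2 is the filled point in both panels, at 0.69 and 0.58.

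The gene that passed belongs to the proton pump. Atp6v0d2 (Entrez 242341, chr4:19876838-19922566 in GRCm38) encodes the d2 isoform of a V0 subunit, known from osteoclasts and macrophages. Its FPKM (fragments scaled to gene length and library depth) was 25.9 and 33.5 in the HFD ARM libraries and 16.9 and 17.3 in the HFD SM libraries. In ND mice it was 28.2 and 36.2 in ARMs and 19.2 and 21.6 in SMs. Every ARM library was above every SM library of its diet, and replicate 2 was the higher ARM library in each diet. Atp6v0d2 rose by 0.69 on the log2 scale in HFD mice (standard error 0.10, fold 1.61, 95% interval 0.47 to 0.91 on the log2 scale, edgeR adjusted p = 0.00185) and by 0.58 in ND mice (standard error 0.12, 95% interval 0.33 to 0.83 on the log2 scale, just under the 1.5-fold threshold, edgeR adjusted p = 0.00826). In ND mice Atp6v0d2 did not pass without ARM replicate 2 (log2 fold change 0.41) or SM replicate 1 (0.51). In HFD mice its log2 fold change was 0.52 to 0.84 with a library left out. There it did not pass without a filter on low counts (0.69, edgeR adjusted p = 0.0791). Limma on log2(FPKM + 1) without a filter passed Atp6v0d2 in neither diet (0.75, adjusted p = 0.12, and 0.63, adjusted p = 0.295).

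Within each diet, the summed TPM of the lipid-associated macrophage markers was higher in ARMs than in SMs, as Atp6v0d2 was. The adipocyte, fibroblast, vascular endothelial, and pericyte and smooth muscle sums were higher too. The lipid-associated macrophage sum was 1904 and 2278 in HFD ARMs against 1346 and 1404 in HFD SMs. In ND mice it was 1427 and 1589 in ARMs against 1098 and 1149 in SMs. All 7 markers were above 0 in every library. Between diets, that sum was higher in the HFD libraries of each cell type. Atp6v0d2 instead was lower in HFD SMs than in ND SMs and overlapped in ARMs. The part of the lipid-associated macrophage markers in the result for Atp6v0d2 was not tested.

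Atp6v0d1, the isoform of the same subunit found in most cells, is not among the 38 and was looked up after the result for Atp6v0d2 was known. Its FPKM was 84.5 and 86.8 in HFD ARMs, 81.3 and 79.9 in HFD SMs, 89.2 and 81.2 in ND ARMs, and 93.6 and 77.0 in ND SMs. The log2 fold changes were 0.06 (edgeR adjusted p = 0.635) and 0.00 (edgeR adjusted p = 0.998). On the TPM scale, Atp6v0d2 made up 23.5% and 27.8% of the sum of both isoforms in HFD ARMs and 17.2% and 17.8% in HFD SMs. In ND mice that share was 24.0% and 30.8% in ARMs and 17.1% and 21.9% in SMs.

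None of the other 5 pump genes passed. Atp6v1a, the catalytic A subunit of the V1 sector, had an FPKM of 108 and 104 in ND ARMs and 85.0 and 86.4 in ND SMs, without overlap, and 83.7 and 79.9 in HFD ARMs against 85.9 and 79.8 in HFD SMs. Its log2 fold change was 0.31 in ND mice (standard error 0.09, edgeR adjusted p = 0.0803) and -0.04 in HFD mice (edgeR adjusted p = 0.755). In ND mice it passed in 3 of 15 alternatives, DESeq2 among them (adjusted p = 0.0365). Atp6v0a1 (the a1 subunit of V0), Atp6v1b2 (the B2 subunit of V1), Atp6v1h (the regulatory H subunit) and Atp6ap1 (an accessory protein of pump assembly) had log2 fold changes of -0.14 to 0.07 in HFD mice and 0.00 to 0.15 in ND mice.

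**Figure D3:**
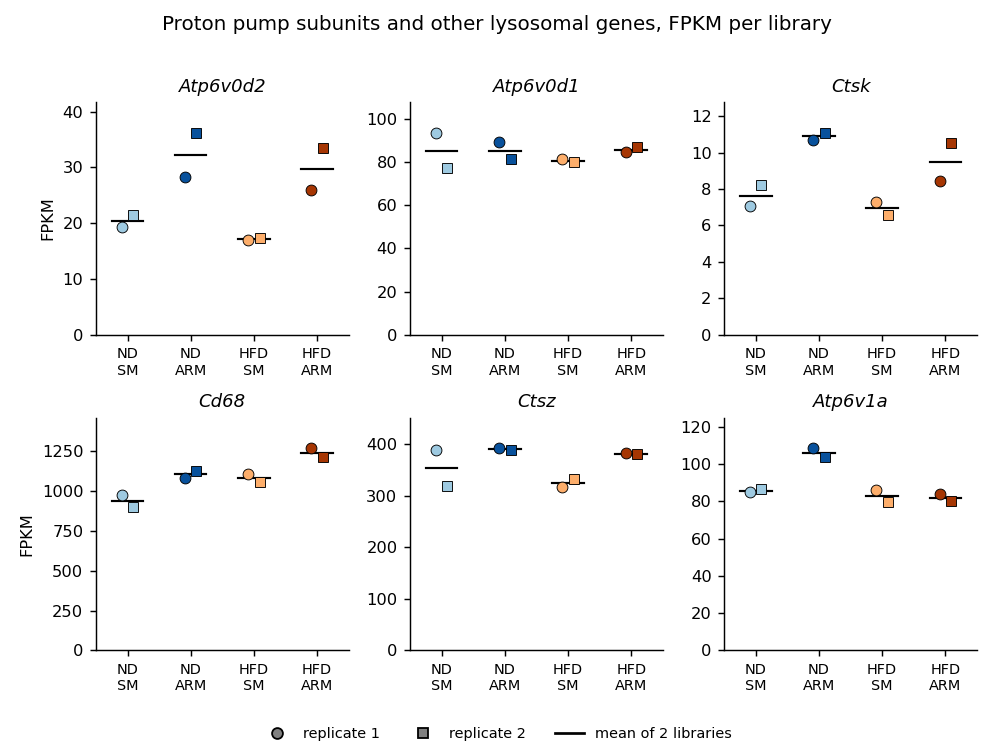
FPKM of 5 of the 38 genes and of Atp6v0d1 in each library, with a circle for replicate 1, a square for replicate 2 and a line for the mean of 2 libraries, each panel starting at 0. Within each diet the ARM libraries of Atp6v0d2 (25.9 to 36.2 over both diets) and of Ctsk (8.44 to 11.1) lie above the SM libraries (16.9 to 21.6 and 6.56 to 8.21), whereas Atp6v0d1 overlaps in ND mice.

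Among the 13 proteases, 0 passed in either diet by edgeR, with 4 at an unadjusted p under 0.05 in HFD mice and 1 in ND mice (23.2% and 14.9% of all genes). Ctsk (Entrez 13038, chr3:95499210-95509387 in GRCm38), a collagen-degrading cathepsin best known from osteoclasts, had the highest estimate. Its FPKM was 8.44 and 10.5 in HFD ARMs against 7.31 and 6.56 in HFD SMs, and 10.7 and 11.1 in ND ARMs against 7.05 and 8.21 in ND SMs. The ARM and SM libraries did not overlap in either diet. On the log2 scale the fold change of Ctsk was 0.41 in HFD mice (standard error 0.12, 95% interval 0.14 to 0.68, edgeR adjusted p = 0.0647) and 0.49 in ND mice (standard error 0.15, 95% interval 0.17 to 0.81, edgeR adjusted p = 0.0793). It passed in HFD mice without SM replicate 1 (0.48, edgeR adjusted p = 0.0383) and with at least 10 counts required in every library (0.42, edgeR adjusted p = 0.0483). In ND mice Ctsk also passed in 2 of 15 alternatives, among them the fit of all 8 libraries (0.50, edgeR adjusted p = 0.0463). Fibroblasts also express Ctsk, and the summed TPM of the 8 fibroblast and progenitor markers was 363 and 444 in HFD ARMs against 267 and 244 in HFD SMs, and 467 and 683 in ND ARMs against 161 and 224 in ND SMs. The part of these cells in the Ctsk values was not tested.

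Ctsz, a carboxypeptidase, had an FPKM of 382 and 380 in HFD ARMs against 318 and 333 in HFD SMs, a log2 fold change of 0.20 (standard error 0.06, edgeR adjusted p = 0.0652). Ctsz passed there in 6 of 15 alternatives, with DESeq2 (adjusted p = 0.0418) and limma (adjusted p = 0.0442) among them. In ND mice the ARM libraries of Ctsz (392 and 389) were barely above the higher SM library (388 and 318), with a log2 fold change of 0.14 (edgeR adjusted p = 0.628). Ctsc, the dipeptidyl peptidase that activates granule serine proteases, pointed the other way. Its FPKM was 411 and 390 in HFD ARMs against 468 and 477 in HFD SMs, and 437 and 414 in ND ARMs against 521 and 467 in ND SMs. The log2 fold changes of Ctsc were -0.18 (standard error 0.06, edgeR adjusted p = 0.103) and -0.19 (standard error 0.10, edgeR adjusted p = 0.444), and limma on log2(FPKM + 1) passed it in HFD mice (-0.24, adjusted p = 0.0438).

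The most abundant proteases differed little between the cells. On the log2 scale, the change of Ctsb was -0.02 on HFD and 0.02 on ND, with 95% intervals of -0.15 to 0.11 and -0.20 to 0.25. Ctsd, the aspartic protease, was at 0.07 and 0.13, Ctss, the cathepsin that trims the class II invariant chain, at 0.07 and 0.05, and Lgmn at -0.11 and -0.01. Ctsl, Ctsh, Ctsf, Ctsa (the protective protein of sialidase and β-galactosidase) and Tpp1 (a tripeptidyl peptidase) lay between -0.15 and 0.07 in HFD mice and between -0.16 and 0.11 in ND mice. Ctse, an aspartic protease of the endosome, was too low to bound, with 95% intervals of the log2 fold change of -0.56 to 0.99 and -0.88 to 0.98.

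The 6 glycosidases and the 4 genes of sphingolipid and cholesterol handling held 0 passing genes in either diet by edgeR. DESeq2 and limma also passed 0 of them. In HFD mice 2 glycosidases and 1 of the 4 lipid genes had an unadjusted p under 0.05, and in ND mice 0 of either, against 23.2% and 14.9% of all genes. Hexa, the α subunit of β-hexosaminidase, was at -0.15 on the log2 scale in HFD mice (edgeR adjusted p = 0.154), and Man2b1, the lysosomal α-mannosidase, at -0.14 (edgeR adjusted p = 0.193). The acid α-glucosidase gene Gaa, the β-galactosidase gene Glb1, the β-glucuronidase gene Gusb and the sialidase gene Neu1 were between -0.02 and 0.09 in HFD mice and between 0.01 and 0.18 in ND mice. Psap was at 0.14 in HFD mice, where its ARM libraries (1617 and 1721 FPKM) lay above its SM libraries (1466 and 1491 FPKM) (edgeR adjusted p = 0.181), and at 0.11 in ND mice. Asah1, the acid ceramidase gene, was at -0.14 and -0.05. The cholesterol exporters Npc1 and Npc2, which hand cholesterol out of the lysosome, were at 0.02 and -0.07 in HFD mice and 0.04 and -0.05 in ND mice.

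The 7 membrane protein genes also held 0 passing genes by edgeR without a block, DESeq2 or limma. By edgeR, 3 had an unadjusted p under 0.05 in HFD mice and 1 in ND mice, against the same shares of all genes. Cd68 passed in ND mice in 1 of 15 alternatives, edgeR with the replicate number as a block (edgeR adjusted p = 0.0396). Cd68 had an FPKM of 1265 and 1210 in HFD ARMs against 1103 and 1058 in HFD SMs, and 1083 and 1126 in ND ARMs against 977 and 901 in ND SMs. Its ARM libraries were above the SM libraries in each diet, with log2 fold changes of 0.17 (standard error 0.06, edgeR adjusted p = 0.125) and 0.23 (standard error 0.10, edgeR adjusted p = 0.269). By FPKM, Atp6v0a1, Atp6v0d2, Ctsd, Ctsk, Ctsz, Laptm5 and Psap were also without overlap and higher in ARMs of both diets. Ctsc, Ctsh and Man2b1 were without overlap and lower. The share of all genes without such overlap was not counted. With 2 libraries a group, these genes therefore cannot be read as separated more often than other genes. The main membrane glycoproteins Lamp1 and Lamp2 were both at -0.16 in HFD mice (edgeR adjusted p = 0.137 and 0.181) and both at -0.01 in ND mice. Scarb2 (the transporter of β-glucocerebrosidase), Mcoln1 (a calcium channel), Laptm5 and Laptm4a lay between -0.09 and 0.10 in HFD mice and between -0.07 and 0.12 in ND mice. Of the 2 regulators, Tfeb, a transcription factor of lysosomal genes, was at 0.06 and 0.22, and Grn at -0.14 and -0.05.

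Whether the change between ARMs and SMs differed between diets was tested in a single fit of all 8 libraries. Of the 38 genes, 0 passed by edgeR, against 0.165% of the 13358 genes tested, and 1, Atp6v1a, had an unadjusted p under 0.05, as did 7.61% of all genes. DESeq2 and limma gave the same counts. The change of Atp6v1a in HFD mice less that in ND mice was -0.37 on the log2 scale (standard error 0.11, 95% interval -0.60 to -0.14, edgeR adjusted p = 0.264, and 0.0876 to 0.926 over 18 alternatives). For Atp6v0d2 the same difference was 0.09 (standard error 0.17, 95% interval -0.27 to 0.45, edgeR adjusted p = 0.966) and for Ctsk -0.10 (95% interval -0.50 to 0.31). The median difference over the 38 genes was -0.08, beside -0.03 over all genes.

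Because TFEB acts through a promoter element with the core CACGTG, promoters of the 38 genes were read from RefSeq (GRCm38.p6, 250 bases before to 50 after a start). Promoters of 30 of the 38 genes were found there, and those of Asah1, Atp6v0d2, Atp6v1b2, Atp6v1h, Ctsb, Ctse, Ctsh and Npc1 were not. CACGTG, which reads the same on both strands, was in a promoter of 10 of the 30 (33.3%), Atp6v1a, Ctsa, Ctsd, Ctsf, Ctsl, Gaa, Glb1, Lamp1, Lgmn and Mcoln1, and in 8.09% of all 27025 genes with a promoter. The longer TCACGTGA, which contains it, was in 4 of the 30 (13.3%) and in 1.12% of all genes. The stretches around it are shown because they hold this longer match, with TCACGTGA in capitals, each read 5′ to 3′ on the strand of its gene.
Atp6v1a: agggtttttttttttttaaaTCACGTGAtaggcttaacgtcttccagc
Ctsa: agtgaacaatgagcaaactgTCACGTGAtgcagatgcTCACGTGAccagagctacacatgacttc
Ctsd: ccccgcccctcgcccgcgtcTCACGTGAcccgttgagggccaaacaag
Mcoln1: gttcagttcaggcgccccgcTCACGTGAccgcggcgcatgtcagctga
These lie at chr16:44139364-44139411 (minus strand, Atp6v1a), chr2:164833740-164833804 (plus strand, Ctsa), chr7:142387899-142387946 (minus strand, Ctsd) and chr8:3500453-3500500 (plus strand, Mcoln1). The match begins 99 bases before the start of Ctsd and 46 before that of Mcoln1, which are the outer starts of these genes. For Atp6v1a it begins 132 bases before a start that lies 443 bases inside the annotated gene. For Ctsa it begins 13 bases before, and again 4 bases after, a start that lies 901 bases inside the gene, 1 of 2 starts listed.

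The 10 genes with CACGTG had a median log2 fold change in ARMs of -0.02 in HFD mice (range -0.16 to 0.07) and 0.06 in ND mice (-0.01 to 0.31). The 20 genes without it were at -0.03 (-0.18 to 0.41) and 0.03 (-0.19 to 0.49). The ranges overlap, and the match is a description of the sequence, not of binding.

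Other genes of the lysosome, in lists written from general knowledge, were set beside the 38. Of all genes tested, 6.53% passed as higher and 3.02% as lower in HFD ARMs, and 4.28% and 0.458% in ND ARMs. The counts of passing genes in these lists are to be read against those shares. Among 36 other hydrolases tested in HFD mice, 3 were higher (Acp5, Ppt2, Pld3) and 2 lower (Smpdl3a, Arsb) in ARMs, and Acp5 alone passed in ND mice. Acp5, the tartrate-resistant acid phosphatase, had an FPKM of 37.2 and 39.0 in HFD ARMs against 22.4 and 21.7 in HFD SMs, and 23.1 and 23.7 in ND ARMs against 13.6 and 14.9 in ND SMs. The libraries did not overlap, with log2 fold changes of 0.76 (standard error 0.07, edgeR adjusted p = 0.00014) and 0.73 (standard error 0.12, edgeR adjusted p = 0.00238), and the call held with each library left out (0.74 to 0.78 and 0.67 to 0.78). Ppt2, a thioesterase, was at 0.38 and Pld3, an exonuclease, at 0.23, while Smpdl3a, a phosphodiesterase, was at -0.37 and Arsb, an arylsulfatase, at -0.33. Without HFD ARM replicate 2 none of these 4 passed (edgeR adjusted p = 0.249 for Ppt2, which DESeq2 did not pass either, 0.307 for Pld3, 0.136 for Smpdl3a and 0.0934 for Arsb). Pld3, Smpdl3a and Arsb were also lost without HFD ARM replicate 1 (edgeR adjusted p = 0.177, 0.0956 and 0.162), and Pld3 without either HFD SM replicate (edgeR adjusted p = 0.0845 and 0.057).

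Among 26 other membrane proteins and transporters tested with edgeR, Gpnmb and Slc15a3 were higher in both diets. Sidt2, a lysosomal nucleic acid transporter, was lower in HFD ARMs (-0.26, edgeR adjusted p = 0.0265). It did not pass without HFD ARM replicate 1, ARM replicate 2 or SM replicate 1 (log2 fold change -0.28 to -0.23 with a library left out). DESeq2 also passed Cd164, a sialomucin of endosomes and lysosomes, as lower in HFD ARMs, where edgeR did not (-0.28, edgeR adjusted p = 0.0599). Gpnmb, a glycoprotein of lysosomes and melanosomes that is also a marker of lipid-associated macrophages, had an FPKM of 42.3 and 50.2 in HFD ARMs against 19.1 and 17.3 in HFD SMs, and 34.4 and 51.2 in ND ARMs against 14.4 and 23.7 in ND SMs. Its log2 fold changes of 1.31 (standard error 0.09, edgeR adjusted p = 2.1e-05) and 1.17 (standard error 0.19, edgeR adjusted p = 0.00208) were the highest of the lysosomal genes that passed. In ND mice Gpnmb did not pass by DESeq2 (adjusted p = 0.176) or without ARM replicate 2 (0.84, edgeR adjusted p = 0.0891). Slc15a3, a transporter of histidine and peptides, was at 0.51 (edgeR adjusted p = 0.00257) and 0.67 (edgeR adjusted p = 0.00216). It did not pass without ARM replicate 2 in HFD mice (0.46) or in ND mice (0.50).

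Of 14 other pump subunits, Tcirg1 alone passed, in HFD mice, and 0 passed in ND mice (2 at an unadjusted p under 0.05, against 14.9% of all genes, and 0 by DESeq2 and limma). Tcirg1, the a3 isoform of the V0 sector that osteoclasts use, had an FPKM of 97.5 and 98.4 in HFD ARMs against 80.5 and 81.3 in HFD SMs, a log2 fold change of 0.25 (standard error 0.06, edgeR adjusted p = 0.0271), and was at 0.30 in ND mice (edgeR adjusted p = 0.119). Tcirg1 did not pass in HFD mice without ARM replicate 1, ARM replicate 2 or SM replicate 1 (log2 fold change 0.24 to 0.26 with a library left out). Of 22 genes that sort enzymes to lysosomes, Igf2r and Sort1 were higher in HFD ARMs, and Igf2r and Vps18 in ND ARMs. Igf2r, the cation-independent mannose 6-phosphate receptor, had an FPKM of 3.69 and 4.84 in HFD ARMs against 2.10 and 2.29 in HFD SMs, a log2 fold change of 0.93 (edgeR adjusted p = 0.00095), and was at 0.72 in ND mice (edgeR adjusted p = 0.0299), where the call was lost without ARM replicate 2 (0.31, edgeR adjusted p = 0.486) or SM replicate 1 (0.63, edgeR adjusted p = 0.114). M6pr, the cation-dependent receptor, did not pass, with log2 fold changes of 0.08 (edgeR adjusted p = 0.509) and 0.02 (edgeR adjusted p = 0.954). On the FPKM scale M6pr had means of 107 ± 0.233 in HFD ARMs and 99.8 ± 0.276 in HFD SMs (SD, n = 2). Sort1, the sorting receptor sortilin, was at 0.88 (edgeR adjusted p = 0.00058) and 0.46 (edgeR adjusted p = 0.0684), and Vps18, a tethering factor of endosome fusion, at 0.43 in ND mice (edgeR adjusted p = 0.0347). Vps18 did not pass without ND ARM replicate 2, SM replicate 1 or SM replicate 2 (log2 fold change 0.28 to 0.56 with a library left out). Limma passed neither Igf2r nor Vps18 in ND mice (adjusted p = 0.218 and 0.121). Sort1 passed in ND mice without ARM replicate 1 (0.62, edgeR adjusted p = 0.023).

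Of 16 genes of the TFEB family and of lysosomal nutrient sensing, 0 passed in either diet by edgeR, DESeq2 or limma, with 2 and 1 at an unadjusted p under 0.05 by edgeR, against 23.2% and 14.9% of all genes. The lowest p belonged to Rptor, the mTORC1 scaffold, in HFD mice (0.18, edgeR adjusted p = 0.199) and to Fnip2, a partner of folliculin, in ND mice (0.39, edgeR adjusted p = 0.0505). Fnip2 passed there in 7 of 15 alternatives (adjusted p = 0.00036 to 0.383), among them without ND ARM replicate 2 (0.52, edgeR adjusted p = 0.0415). Of 2 cathepsin inhibitors tested, 0 passed by edgeR without a block, DESeq2 or limma. Cst3, the secreted inhibitor cystatin C, was at -0.16 and -0.27 (edgeR adjusted p = 0.153 and 0.194, 1 unadjusted p under 0.05 in each diet). In ND mice Cst3 passed as lower in 1 of 15 alternatives, edgeR with the replicate number as a block (edgeR adjusted p = 0.0116).

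**Figure D4:**
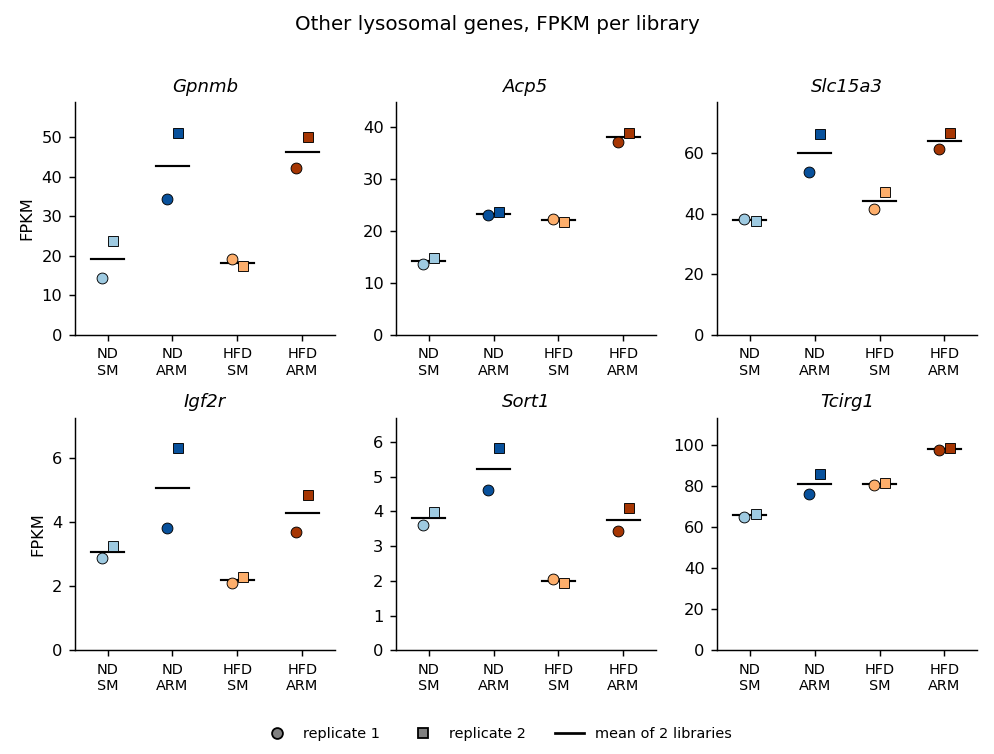
FPKM per library of 6 of the lysosomal genes outside the 38 that passed in at least 1 diet, with a circle for replicate 1, a square for replicate 2 and a line for the mean of 2 libraries, each panel starting at 0. All 6 were picked from genes higher in ARMs. Not shown are Ppt2, Pld3 and Vps18, which also passed as higher, and Smpdl3a, Arsb and Sidt2, which passed as lower. ARM libraries lie above the SM libraries of their diet in every panel, by a log2 fold change of 1.31 for Gpnmb and 0.25 for Tcirg1 in HFD mice.

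Finally, the levels of the 38 genes were set side by side between the diets. HFD and ND values come from separate tables that were not made in the same way, so diet and table cannot be told apart, and no test was made. In ARMs, both HFD libraries were above both ND libraries for 7 genes and below them for 21 on the FPKM scale, where 28.5% and 43.2% of all genes were above and below. In SMs it was 8 genes above and 15 below, where 27.4% and 46.4% of all genes were. The split followed the scale, as it did over all genes. With TPM it was 8 and 17 in ARMs (30.3% and 41.2% of all genes) and 13 and 11 in SMs (32% and 39.8%). With CPM (counts scaled to library size after TMM normalization) it was 11 and 12 in ARMs (34.8% and 36.9%) and 13 and 13 in SMs (33.9% and 38%). As a median over the 38 genes, the log2 ratio of HFD over ND FPKM was -0.10 in ARMs and -0.07 in SMs, beside -0.10 and -0.12 over all genes.

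On all 3 scales and in both cell types, 9 of the 38 genes had both HFD libraries below both ND libraries, where 27.4% of all genes did. Ctsl, a broad cysteine protease, had the widest gap, with an FPKM of 211 and 233 in HFD ARMs and 238 and 219 in HFD SMs against 412 and 370.5 in ND ARMs and 385 and 364 in ND SMs. Its log2 ratio was -0.82 in ARMs and -0.71 in SMs, and -0.71 and -0.59 on the CPM scale. Asah1 had 165 to 191 FPKM in the 4 HFD libraries and 239 to 261 in the 4 ND libraries, with log2 ratios of -0.59 and -0.52. Atp6v1h followed at -0.62 and -0.43, Npc1 at -0.41 and -0.41, Ctsd at -0.35 and -0.31, Atp6v0a1 at -0.32 and -0.30, Lamp2 at -0.31 and -0.18, Laptm4a at -0.24 and -0.22, and Gusb at -0.17 and -0.29.

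On the same terms, 4 genes had both HFD libraries above both ND libraries, where 20.1% of all genes did. Neu1 had 36.9 to 41.0 FPKM in the 4 HFD libraries and 26.4 to 31.4 in the 4 ND libraries, with log2 ratios of 0.35 in ARMs and 0.49 in SMs. Cd68 was at 0.16 and 0.20, Ctsa at 0.17 and 0.15, and Mcoln1 at 0.14 and 0.19. Of the 4 genes with TCACGTGA in a promoter, Ctsa and Mcoln1 were above and Ctsd below in HFD libraries. Atp6v1a was below in ARMs (-0.37) and overlapped in SMs (-0.05). The part of the motif in these values was not tested.

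Estimated counts that are not whole numbers, which arise where reads are shared between similar transcripts, were found for 13 of the 38 genes in HFD libraries and 6 in ND libraries. Per library these were 11 to 13 genes (HFD) and 3 genes (ND), beside 32.3% to 32.9% and 8.55% to 9.36% of all genes. Ctsl, Asah1, Npc1, Neu1 and Ctsa were among them in all 4 HFD libraries, as were Ctsb, Ctsc, Hexa and Glb1. Ctsd, Atp6v0a1, Atp6v1h, Gusb, Laptm4a, Cd68 and Mcoln1, also apart between diets on all 3 scales, had whole counts in every library. The part of shared reads in the ratios between diets was not tested. The gene length implied by counts and FPKM was 1.06 times as large in the HFD table as in the ND table, as a median over 37 of the 38 genes and likewise over 10366 genes. It was 0.734 for Ctsc and 0.878 for Ctsb. Ctsb was above in HFD libraries by FPKM (0.19 in ARMs and 0.19 in SMs) and overlapped by CPM (-0.03 and 0.01), while Ctsc was at -0.09 and -0.07 by FPKM and at -0.52 and -0.54 by CPM.

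**Figure D5:**
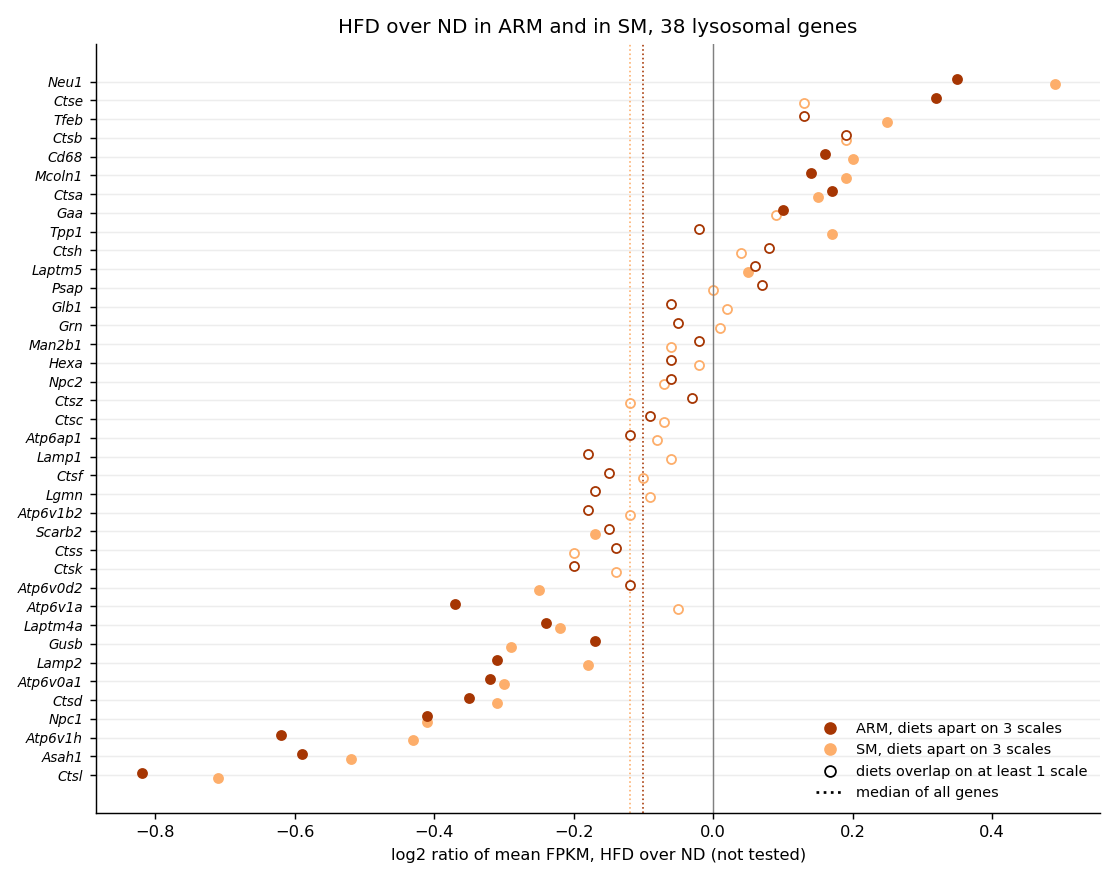
Log2 ratio of the mean HFD FPKM over the mean ND FPKM (2 libraries each) for each of the 38 genes in ARMs and SMs, without a test. Filled points mark genes whose HFD and ND libraries do not overlap on the FPKM, TPM and CPM scales alike, and dotted lines the median of all genes in each cell type (-0.10 in ARMs and -0.12 in SMs). Ctsl is lowest in both cell types and Neu1 highest.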

How the data were processed

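RNA-seq of sorted macrophages was analysed in 8 libraries, 2 for each of 4 groups. The authors deposited estimated counts, FPKM and TPM per gene and library, in a table per diet, with the genome build mm10 (GRCm38) in the submitters' processing notes. The aligner, the counter and the annotation are not given in the sources used here. The estimated counts were not whole for 32.3% to 32.9% of genes in HFD libraries and 8.55% to 9.36% in ND libraries. The tables' columns of group means were not used.

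The HFD and ND counts were rounded and fitted separately in edgeR 4.0.16 (R 4.3.3), using TMM, filterByExpr and its quasi-likelihood test, with p-values adjusted (Benjamini-Hochberg) over all genes tested. All 38 genes passed the filter. The difference between diets was fitted on all 8 libraries. The biological coefficient of variation was 5.55% (HFD) and 8.61% (ND), and replicates differed by more than sampling noise (mean chi-square per gene 4.06 to 9.59). An exact test of a single gene cannot pass with 2 libraries against 2. Nothing ties the pools to separate experiments, so p-values measure the spread between these pools.

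Alternatives were DESeq2 1.42.0, other normalizations and filters, limma 3.58.1 on log2(FPKM + 1) and log2(FPKM + 0.1) (genes with at least 1 FPKM in 2 libraries, or no filter), the replicate number as a block, a joint fit and each library left out. The fits were tested on simulated data. Promoters were matched by symbol, with 27 of 35 windows running into a transcript of their gene in the stated orientation and 0 in reverse. Figures were drawn with matplotlib 3.10.9. The 38 genes, the other lists and the tests were chosen with earlier results of these data known. All 38 genes are named. From each other list the genes called in either diet are named, otherwise the gene with the lowest p in each diet, and beyond that rule, after their values were seen, Ppt2, Pld3, Smpdl3a, Arsb, Sidt2, Vps18, Cd164, M6pr, Atp6v0d1 and the promoter stretches of Atp6v1a, Ctsa, Ctsd and Mcoln1.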

Additional observations from a re-analysis of the deposited data

How the results depend on the processing

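With 2 pools a group, single libraries decided several calls. The share of all genes that passed was counted for the main edgeR fits alone, not for the alternatives. In HFD mice the number of the 38 genes that passed as higher in ARMs, 1 in the edgeR fit, was 2 with DESeq2, upper-quartile factors, library totals or limma on log2(FPKM + 1) or log2(FPKM + 0.1), 3 with at least 10 counts in every library, and 0 without a filter in edgeR or limma, where more low genes were tested. It was 1 to 2 with a library left out. The number lower, 0, was 1 with limma at either pseudocount. The number past 1.5-fold, 1, was 0 without a filter in edgeR or limma, and 0 to 1 with a library left out, the 0 being without HFD ARM replicate 2. In ND mice the number higher, 1, was 2 with DESeq2, 3 in a fit of all 8 libraries together, 0 with limma without a filter, and 0 to 1 with a library left out. The number past 1.5-fold, 0, was 1 with RLE factors, at least 10 counts in every library, limma at either pseudocount and the fit of all 8 libraries, and 0 to 1 with a library left out. The median log2 fold change over the 38 genes was between -0.04 and 0.01 in HFD mice, on either side of 0, and between 0.02 and 0.10 in ND mice, and 0 genes passed for the difference between diets in any of the alternatives tried.

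With the replicate number as a block, 4 genes passed in ND mice, Atp6v0d2 with Ctsk (edgeR adjusted p = 0.00556), Cd68 (0.0396) and Atp6v1a (0.00322), and so did Sort1, Tcirg1, Fnip2 and, as lower, Cst3 (0.0116). The share of all genes that passed with this block was not counted, so the 4 genes cannot be set against it. The labels give no pairing beyond the number. Same-numbered ARM and SM libraries deviated from their group means with a correlation across genes of 0.221 in ND mice and -0.0284 in HFD mice.

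For HFD against ND in ARMs, the number of genes above, 7 by FPKM, was 11 by CPM and 8 to 11 with a library left out, with 11 without ND ARM replicate 2, and the number below, 21, was 12 by CPM and 22 to 25 with a library left out. In SMs the number above, 8, was 13 by TPM and 13 by CPM, and 9 to 12 with a library left out. By CPM, 34.8% of all genes were above and 36.9% below in ARMs. In SMs 32% of all genes were above by TPM and 33.9% by CPM. These shares were not counted with a library left out. Of 2586 values of single genes under the alternatives, 61 lost and 30 gained significance, and no called value changed direction. The causes were not tested. Depth limits Ctse, with as few as 13 counts.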
